A study of Mus musculus with 14 samples.

Results

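Regions of the genome listed with both H3K27ac and H3K9me3 were examined in E14 mouse embryonic stem cells, by chromatin immunoprecipitation followed by sequencing (ChIP-seq). A region was taken as dual when an interval of the vehicle H3K27ac peak list shared at least 1 bp with an interval of the vehicle H3K9me3 list and none with the p53 list. Of 82177 vehicle H3K27ac regions, 6199 (7.54%) were dual. They met 6211 of the 60836 vehicle H3K9me3 regions (10.2%). For comparison, 71247 regions carried H3K27ac only, 52367 carried H3K9me3 only, and 1152 further regions with both marks were set apart because they overlapped p53. The members were chosen by their presence in the vehicle H3K27ac and H3K9me3 peak lists, so the vehicle pileups and the overlap of the marks are given as a description.

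Acetylation of histone H3 on the lysine that gives H3K27ac is placed by CBP and p300 at active enhancers and promoters. Trimethylation that gives H3K9me3 is written by SETDB1 and the SUV39H enzymes and is bound by HP1 proteins in compacted chromatin. In mouse embryonic stem cells SETDB1, brought in by KRAB zinc finger proteins and TRIM28, places H3K9me3 on endogenous retroviruses and at imprinted control regions. A single molecule of H3 can carry both modifications. A list made from a population of cells does not tell whether 2 marks sit on 1 nucleosome, on 2 alleles or in different cells.

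Doxorubicin, a topoisomerase II poison, was given at 1 µM for 6 h and vehicle cells received DMSO. Both had 6 h without drug and were harvested 12 h after the start, then fixed with 1% formaldehyde for 10 min. The cells were grown on gelatin in 2i and LIF medium with serum. The groups used are doxorubicin H3K27ac, doxorubicin H3K9me3, HA-tagged p53, an untagged HA control, input chromatin of doxorubicin-treated cells, vehicle H3K27ac and vehicle H3K9me3, with 2 libraries each. No treatment is stated in the titles of the HA libraries, and no genotype beyond the tag is given.

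Every list was called on its 2 pooled libraries, so no difference here has a replicate check and none was tested. Intervals are 95% Wilson intervals and cover counting error only. Fragments behind the lists numbered 17036528 for doxorubicin H3K27ac, 14402634 for doxorubicin H3K9me3, 20647895 for vehicle H3K27ac and 15992125 for vehicle H3K9me3. The doxorubicin lists were the longer ones, with 112259 against 82177 regions for H3K27ac and 78890 against 60836 for H3K9me3. Vehicle H3K27ac was listed within 1000 bp of an end of 8 of 8 stem cell marker genes, among them Pou5f1, Nanog and Sox2, and of 1 of 6 fibroblast genes, Col1a1. Neither set of markers had a dual region.

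Part of the dual regions was also listed without any antibody to a histone mark. The input list overlapped 870 of the dual regions (14.03%, interval 13.2 to 14.9%), against 0.376% of H3K27ac-only and 0.666% of H3K9me3-only regions. Over all vehicle H3K27ac regions the share was 1.59%. The untagged HA list overlapped 1133 dual regions (18.3%), and 1174 (18.9%) were in at least 1 of the 2 control lists. Among the 20 strongest dual regions 19 were in the input list, and among the 100 strongest 75 were. Strength here is the lower of the 2 percentile ranks of a region, each taken by summit pileup within its own vehicle list. The part of this background in the results was not tested, and the 5025 dual regions in neither control list are given beside them.

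Promoter windows give examples of sequence under both marks, and the sequence of dual regions away from promoters was not examined. Of the RefSeq promoter windows (GRCm38.p6, the assembly behind mm10, 250 bases before to 50 after a start), 27 windows of 25 genes lay wholly inside a dual region and its H3K9me3 region. None belonged to the 12 leading genes by strength or to the silencing and imprinted genes named further on, so 4 were chosen after their values were seen, all outside the control lists. Gm46425 (chr13:65950339-65950638, plus strand) is a protein-coding gene model, and Etl4 (chr2:20509797-20510096, plus strand) has this start within the gene. Gm37116 (chr3:88284749-88285048, minus strand) was listed with H3K9me3 alone after doxorubicin. Gm44140 (chr6:136518704-136519003, minus strand) starts opposite Atf7ip, whose product is a partner of SETDB1. Capitals mark matches on either strand to TCCCGC (an E2F-type motif, GCGGGA on the other strand), TGCCGC (the motif of ZFP57, GCGGCA on the other strand) and CACGTG (the E-box).
Gm46425: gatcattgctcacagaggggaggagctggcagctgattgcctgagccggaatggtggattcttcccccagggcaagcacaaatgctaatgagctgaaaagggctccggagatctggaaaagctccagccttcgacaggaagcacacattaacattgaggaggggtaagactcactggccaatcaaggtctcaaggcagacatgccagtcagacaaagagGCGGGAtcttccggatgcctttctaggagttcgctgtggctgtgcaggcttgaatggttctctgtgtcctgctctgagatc
Etl4: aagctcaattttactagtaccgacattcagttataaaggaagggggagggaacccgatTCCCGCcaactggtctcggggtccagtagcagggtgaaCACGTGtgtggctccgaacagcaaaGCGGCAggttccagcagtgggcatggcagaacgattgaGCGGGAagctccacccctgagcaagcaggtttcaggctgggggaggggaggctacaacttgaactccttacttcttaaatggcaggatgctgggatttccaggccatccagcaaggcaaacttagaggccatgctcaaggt
Gm37116: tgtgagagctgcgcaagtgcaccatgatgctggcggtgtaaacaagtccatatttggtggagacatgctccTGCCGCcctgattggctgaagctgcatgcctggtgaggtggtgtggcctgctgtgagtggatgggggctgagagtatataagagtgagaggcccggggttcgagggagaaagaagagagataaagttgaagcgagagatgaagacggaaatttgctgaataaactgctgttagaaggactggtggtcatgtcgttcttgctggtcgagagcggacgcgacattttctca
Gm44140: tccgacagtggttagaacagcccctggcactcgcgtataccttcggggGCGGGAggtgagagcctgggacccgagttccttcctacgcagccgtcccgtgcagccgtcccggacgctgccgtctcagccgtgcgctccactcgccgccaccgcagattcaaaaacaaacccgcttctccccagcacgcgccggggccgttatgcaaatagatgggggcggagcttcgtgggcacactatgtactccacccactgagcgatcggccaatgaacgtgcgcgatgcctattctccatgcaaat

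These windows differ in CpG content, with 6 CpG dinucleotides at Gm46425, 9 at Etl4, 12 at Gm37116 and 30 at Gm44140. The Gm46425 region had summit pileups of 26 fragments for H3K27ac and 23 for H3K9me3 after doxorubicin, against 27 and 25 in vehicle. At Etl4 the pileups were 18 and 10 after doxorubicin, against 23 and 13 in vehicle. At Gm44140 they were 35 and 10 after doxorubicin, against 45 and 14 in vehicle. All 3 thus kept both marks in the lists. Gm37116 was listed with no H3K27ac and with 28 fragments of H3K9me3 after doxorubicin, against 27 and 19 in vehicle. Pileups are the authors' values from lists of different depth, so they are set side by side and not divided.

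The promoters at dual regions were poorer in CpG than those at H3K27ac-only regions. A window counted here when it met the mark or marks in question. The 87 dual windows had a median of 6 CpG (quartiles 3 and 12), against 19 (10 and 27) for 10261 H3K27ac-only windows and 4 (2 and 9) for 426 H3K9me3-only windows, while all 32817 windows had a median of 7. The 59 dual windows outside the control lists had a median of 8. TCCCGC was found in 16.1% of the dual windows (interval 9.83 to 25.2%), against 32.4% of H3K27ac-only and 5.40% of H3K9me3-only windows, and in 19.97% of all windows. For TGCCGC the shares were 9.20% of dual, 17.3% of H3K27ac-only, 8.92% of H3K9me3-only and 11.6% of all windows. CACGTG was in 8.05% of dual, 10.2% of H3K27ac-only, 2.82% of H3K9me3-only and 7.15% of all windows. The palindromic motif of NRF1 was in 0 of the 87 dual windows, which allows a share of up to 3.45% (3 counts) and has a Wilson upper bound of 4.23%. It was in 2.14% of H3K27ac-only, 0 of the 426 H3K9me3-only (up to 0.704%, 3 counts) and 0.966% of all windows. Each motif was sought on both strands without regard to overlap with another, and a match or its absence describes the letters only.

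Among the dual promoter windows, 31 held 10 or more CpG and 56 held fewer. Both marks were listed after doxorubicin at 23 of the 31 CpG-rich and at 44 of the 56 CpG-poor windows. H3K9me3 alone remained listed at 5 and 8 of them.

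In vehicle the marks were of similar scaled height at most dual regions. Summit pileup per 1000000 fragments of the list had a median of 1.02 for H3K27ac and 1.06 for H3K9me3. The lowest values were also close, at 0.436 and 0.500, and a dual region has to pass the lower limit of both lists. The part of these limits in the likeness of the medians was not tested. The pileup balance, log2 of the H3K27ac value over that of the strongest overlapping H3K9me3 region, had a median of -0.047 with quartiles of -0.92 and 0.91, and ran from -7.46 to 4.16. It lay within 1 of 0 at 53.9% of dual regions, above 1 at 23.0% and below -1 at 23.0%. Outside the control lists its median was 0.067, so the sign of the median is not fixed. A balance of 0 is no equal amount, since the antibodies and libraries differ.

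The height of one mark said little about that of the other. Over the 6199 regions Spearman's rho of the 2 pileups was -0.021, and -0.074 over the 5025 outside the control lists, given as a description over regions that share their libraries. Ranked within their own lists, 40.8% of dual regions lay above both list medians, 26.4% above for H3K27ac only, 20.7% above for H3K9me3 only and 12.1% below both. The median H3K27ac summit pileup was 21 fragments at dual regions, against 15 at H3K27ac-only regions. The median H3K9me3 summit pileup was 17 fragments at dual regions, against 15 at H3K9me3-only regions. Dual H3K27ac regions had a median length of 756 bp, against 607 bp for H3K27ac-only, and their H3K9me3 partners 885 bp, against 611 bp for H3K9me3-only. An overlap rule by itself favours longer regions. The H3K9me3 partner was also the highest one met, and was counted again for each dual region it met. The part of these choices in the differences of length and pileup was not tested.

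**Figure D1:**
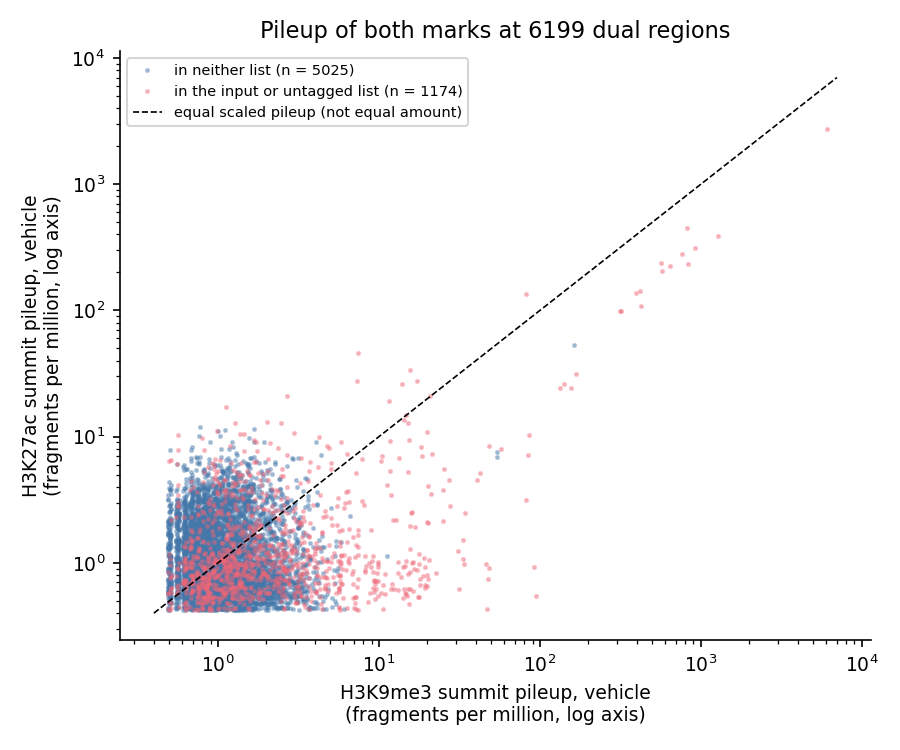
Summit pileup of H3K27ac (vertical axis) against that of the strongest overlapping H3K9me3 region (horizontal axis) in vehicle cells, both in fragments per 1000000 on log axes, 1 point per dual region with slight jitter, coloured by presence in the input or untagged list. Most points lie around 1 fragment per 1000000 for both marks, and the points above 100 on both axes belong to regions of the control lists.

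The overlap of the marks took several shapes. In 31.6% of dual regions the H3K27ac region lay wholly within the H3K9me3 region, in 21.9% the H3K9me3 region lay within the H3K27ac region, and in 46.5% each reached past the other. The shared stretch had a median of 460 bp and covered a median of 78.5% of the H3K27ac region. The 2 summits were a median of 288 bp apart (quartiles 72 and 762.5). They lay within 150 bp of each other at 36.8% of regions and over 1000 bp apart at 19%. Both summits fell in the shared stretch at 53.1% of regions and neither did at 11.5%.

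At the edge of the rule, 222 members shared at most 100 bp with H3K9me3, and 151 H3K27ac regions outside the set had H3K9me3 within 100 bp but not touching. Their median H3K27ac pileups were 15 and 16 fragments. H3K27ac was listed after doxorubicin at 63.5% of the members just inside and 72.2% of the regions just outside, and H3K9me3 at 60.8% and 51.0%.

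Dual regions lay mostly outside annotated genes. The H3K27ac summit was outside genes at 55.1% of them (interval 53.9 to 56.4%), against 26.2% of H3K27ac-only regions, and the H3K9me3 summit was outside genes at 66.5% of H3K9me3-only regions. Within 1000 bp of either gene end lay 7.37% of dual summits, against 21.3% of H3K27ac-only and 4.36% of H3K9me3-only summits, while the share over all vehicle H3K27ac regions was 19.7%. Over all dual regions the share was 4.58% within 500 bp and 25.5% within 5000 bp. Outside the control lists it was 5.97% within 1000 bp. The remaining 37.5% lay elsewhere in genes, against 52.5% of H3K27ac-only and 29.2% of H3K9me3-only summits.

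**Figure D2:**
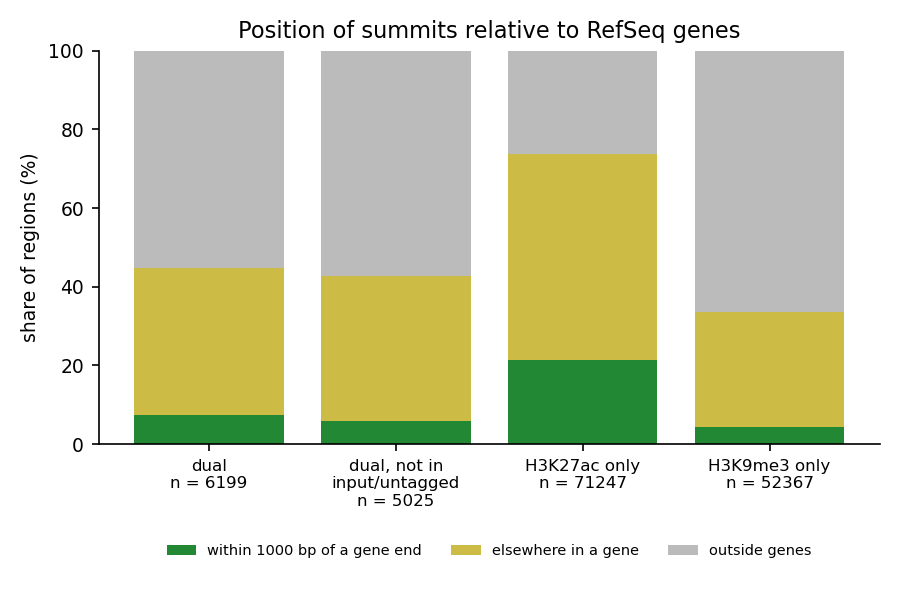
Share of regions (vertical axis, percent) whose summit lay within 1000 bp of a gene end, elsewhere in a gene or outside genes, for dual regions, dual regions outside the input and untagged lists, H3K27ac-only and H3K9me3-only regions. The dual bars, with 55.1% and 57.3% outside genes, stand between those of the single marks, with 26.2% and 66.5%.

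At gene ends the dual regions were less tied to starts than H3K27ac-only regions. Strand was known for 26993 of 45069 genes. Of 287 dual summits at an end of such a gene, 52.96% were at a start and no far end (interval 47.2 to 58.7%), against 73.3% of 11784 H3K27ac-only and 37.3% of 1212 H3K9me3-only summits. The far end alone was met by 44.3% of the dual summits, against 21.2% of H3K27ac-only and 58.0% of H3K9me3-only summits. Of the dual summits outside the control lists, 53.1% were at a start alone.

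Chromosomes differed in how much of their H3K27ac was dual. On the X chromosome 19.9% of the H3K27ac regions without p53 were dual (244 of 1228, interval 17.7 to 22.2%), against 3.68% on chromosome 19 and 11.2% on chromosome 13, the lowest and highest of the autosomes. Without the regions of the control lists the X chromosome had 18.8%. Counted against H3K9me3 instead, the X chromosome was low, since 7.59% of the sum of its dual and H3K9me3-only regions were dual, and the autosomes had 8.01 to 15.3%. After doxorubicin H3K27ac was listed at 86.5% and H3K9me3 at 95.9% of the dual regions of the X chromosome. On the Y chromosome 38 of 58 regions were dual, and 13 of them were outside the control lists. The 6 dual regions of the mitochondrial genome were all in a control list.

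**Figure D3:**
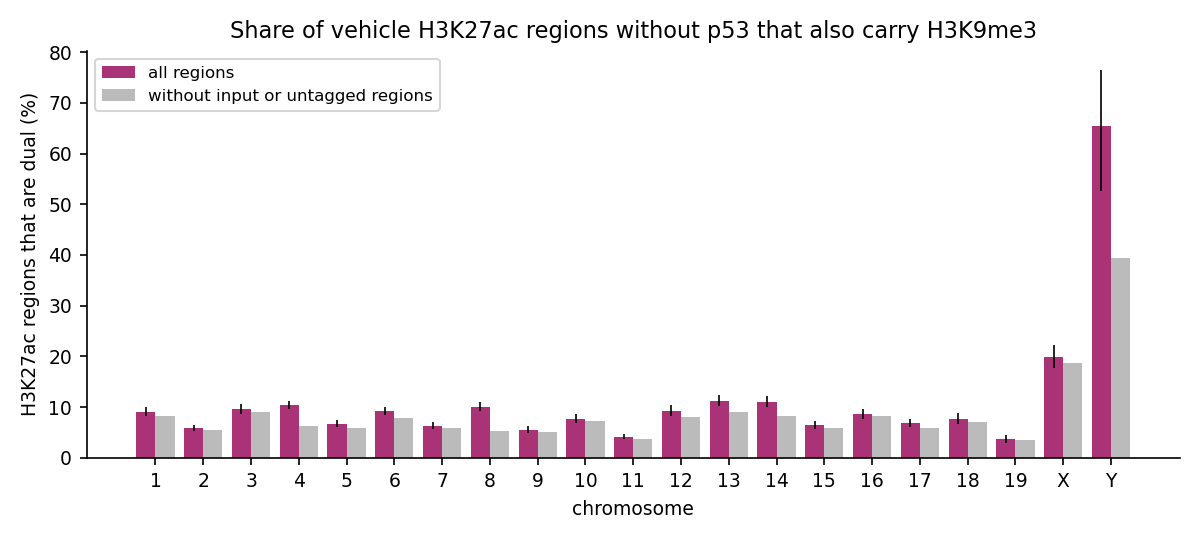
Share of vehicle H3K27ac regions without p53 that were dual (vertical axis, percent) by chromosome, for all regions with 95% Wilson intervals and without the regions of the input or untagged list. The X chromosome, with 19.9% and 18.8%, and the Y chromosome, with 65.5% and 39.4%, stand above the autosomes.

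Dual regions were spread widely, with some dense places. Of 2000 windows of 1 Mb with a dual region, 658 held 1 and 52 held 10 or more, and those 52 held 1209 (19.5%) of all dual regions. The densest, on chromosome 8 from 20000001 to 21000000, held 155, of which 1 was outside the control lists. Its protein-coding genes include the beta-defensin gene Defb33. The neighbouring window from 19000001 to 20000000, with more beta-defensin genes such as Defb38, held 36, of which 3 were outside the control lists. On chromosome 4 the zinc finger windows from 145000001 to 148000000 held 70, 76 and 123 dual regions, of which 11, 7 and 14 were outside the control lists. How reads that fit several near-identical copies were placed was not given in the sources used here, so the counts in these clusters are uncertain.

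Outside the control lists other windows led. On chromosome 13 the windows from 66000001 to 67000000, with Zfp640, and from 62000001 to 63000000, with Zfp808, Zfp934 and Zfp935, held 20 and 18 such regions. With those of the control lists they held 52 and 22 dual regions. The windows on chromosome 2 from 177000001 to 178000000, with Zfp970 and Zfp972, and on chromosome 12 from 19000001 to 20000000 held 16 each. Both marks were listed after doxorubicin at 6 of the 16 on chromosome 2 and at 14 of the 16 on chromosome 12. The uncertainty about reads that fit several near-identical copies holds for these windows as well.

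Dual summits lay within the bodies of 1271 protein-coding genes, of which 941 held 1 and 37 held 5 or more. Zfp978 held 47 and Zfp993 held 26, but only 5 and 6 of these were outside the control lists. Of the genes with regions outside those lists, Bcat1, a branched-chain aminotransferase, and Trak1, an adaptor of mitochondrial transport, held 9 each, and both marks were listed after doxorubicin at 7 of the 9 in each gene. Etl4 held 8 and Ezr, which encodes the membrane linker ezrin, held 7, and all of these kept both marks. Dclk2, a doublecortin-like kinase, held 8, of which 7 were outside the control lists and 4 kept both marks. Ror2, a receptor kinase of Wnt signalling, and Ak9, an adenylate kinase, held 6 each and kept both marks at 4. A830018L16Rik and Arl15, a small GTPase, also held 6 each, and both marks were kept at 2. With Zfp993 these are the 10 genes with 6 or more regions outside the control lists, a number chosen after the counts were seen, and long genes can hold more regions.

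After doxorubicin most dual regions were still listed with both marks, and where 1 mark was left it was mostly H3K9me3. Both were listed at 66.5% of the 6199 (interval 65.3 to 67.7%), H3K9me3 alone at 21.9% (20.8 to 22.9%), H3K27ac alone at 7.29% (6.67 to 7.97%) and neither at 4.36% (3.88 to 4.89%). Over all vehicle H3K27ac regions these shares were 8.44% for both, 2.17% for H3K9me3 alone, 62.7% for H3K27ac alone and 26.7% for neither, where most regions had no H3K9me3 to begin with. The lead of H3K9me3 was not particular to dual regions. Single-mark regions also kept H3K9me3 more often, at 83.4% of H3K9me3-only regions, than H3K27ac, at 69.1% of H3K27ac-only regions. Outside the control lists the dual shares were 65.6%, 22.7%, 7.20% and 4.48% in the same order. With the doxorubicin lists cut to the length of the vehicle lists, both marks fell to 56.2%. H3K9me3 alone then came to 24.3%, H3K27ac alone to 11.8% and neither to 7.73%. The 1152 dual regions with p53 were listed with both marks after doxorubicin at 95.2%.

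For single marks, H3K27ac was listed after doxorubicin at 73.8% of dual regions (interval 72.7 to 74.9%), against 69.1% of H3K27ac-only regions and 71.2% of all vehicle H3K27ac regions. H3K9me3 was listed at 88.4% of dual regions (87.5 to 89.1%), against 83.4% of H3K9me3-only regions and 84.4% of all vehicle H3K9me3 regions. The H3K9me3 share of a dual region asks for any H3K9me3 within its H3K27ac interval.

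The dual regions were higher than single-mark regions to begin with, so the shares were also read within classes of like vehicle pileup. The highest class has no upper limit, and neither the pileup within a class nor the region length was matched. In the lowest of 4 classes cut at the quartiles of all vehicle regions, 9 to 12 fragments, H3K27ac was listed after doxorubicin at 39.8% of dual and 50.4% of H3K27ac-only regions. From 13 to 15 fragments the shares were 51.8% and 62.0%, from 16 to 23 they were 71.0% and 77.9%, and at 24 and over 96.4% and 96.3%. The intervals of both sets were apart in the lower 3 classes and overlapped in the highest. These intervals take regions as independent, though all come from the same pooled libraries, so they do not test a difference. Weighted by the dual regions of each class, the dual share was 4.93 percentage points lower than the H3K27ac-only share (a difference of -4.93, with -5.90 to -3.96 as the interval from binomial errors). The sign held in all 9 alternatives, with differences of -5.91 to -1.30, and the value nearest 0 came when dual regions with p53 were kept.

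For H3K9me3 the pattern at like pileup was mixed. From 8 to 11 fragments it was listed after doxorubicin at 71.8% of dual and 64.1% of H3K9me3-only regions, and from 12 to 15 at 83.8% and 81.0%. From 16 to 22 fragments the shares were 93.2% and 94.4%, and at 23 and over 98.3% and 99.5%. The weighted difference was 1.50 points (0.704 to 2.30), but it turned to -0.431 at a −log10 q of at least 5, to -1.63 at 1 fragment per 1000000 and to -0.155 with lists of equal length.

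**Figure D4:**
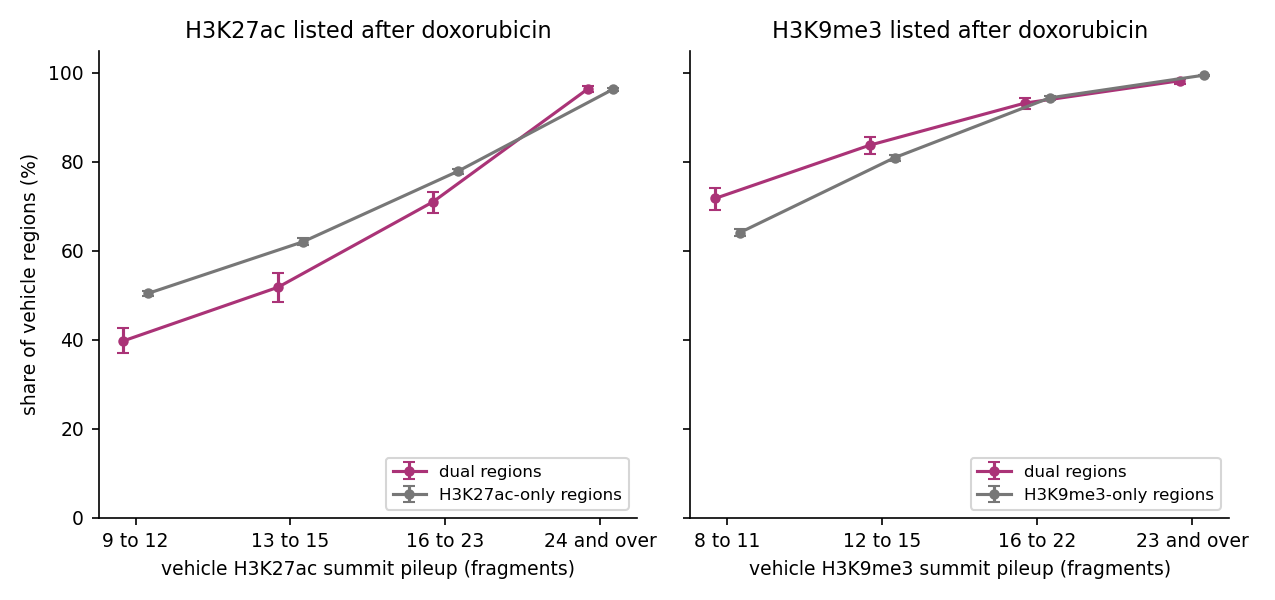
Share of vehicle regions (vertical axis, percent, with 95% Wilson intervals) still listed with H3K27ac (left) or H3K9me3 (right) after doxorubicin, by vehicle summit pileup in fragments (horizontal axis), for dual regions and for regions with that mark only. For H3K27ac the dual points lie below the others up to 23 fragments, and for H3K9me3 they lie above them up to 15.

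Which mark stayed followed the vehicle balance. In the first of 4 equal classes of balance, richest in H3K9me3 with a balance of -0.92 or less, 51.1% kept both marks, 45.7% were listed with H3K9me3 alone and 1.29% with H3K27ac alone. In the last class, richest in H3K27ac with a balance of 0.91 or more, 88.4% kept both, 1.03% had H3K9me3 alone and 10.2% H3K27ac alone. Outside the control lists H3K9me3 alone made up 52.0% of the H3K9me3-rich and 1.08% of the H3K27ac-rich class. Regions left with H3K9me3 alone had vehicle median pileups of 13 fragments of H3K27ac and 20 of H3K9me3, and those left with H3K27ac alone 22 and 12. Regions that lost both from the lists had 13 and 12. The lowest pileups in the vehicle lists were 9 fragments for H3K27ac and 8 for H3K9me3, and the part of this lower limit in the outcome was not tested.

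**Figure D5:**
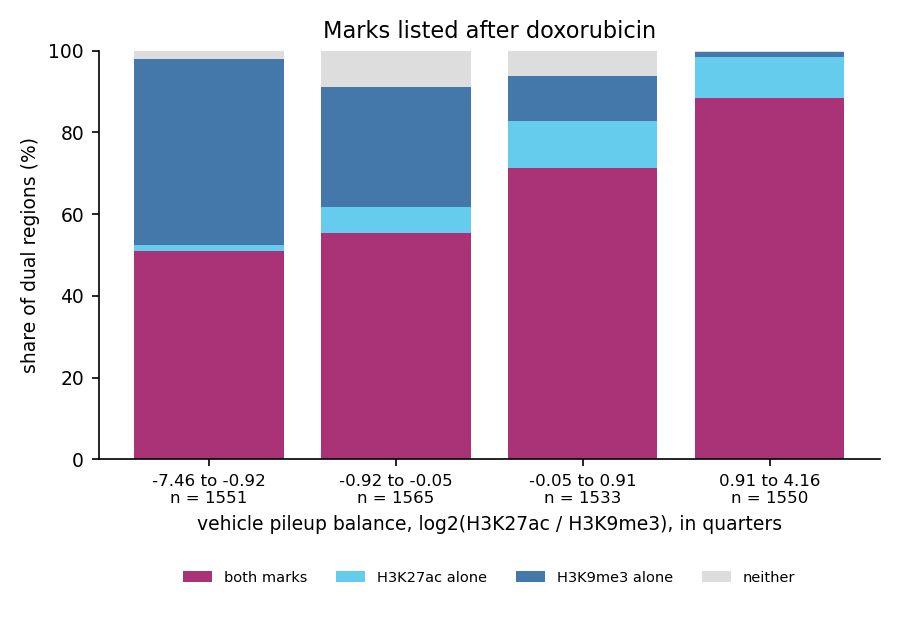
Share of dual regions (vertical axis, percent) listed after doxorubicin with both marks, H3K27ac alone, H3K9me3 alone or neither, in 4 classes of the vehicle pileup balance cut at its quartiles (horizontal axis, log2). H3K9me3 alone takes 45.7% of the leftmost bar and 1.03% of the rightmost.

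The shape of the overlap went with the outcome in the same way. Where H3K27ac lay within the H3K9me3 region, 56.9% kept both marks and 39.9% were listed with H3K9me3 alone. Where H3K9me3 lay within the H3K27ac region, 79.6% kept both, 5.16% had H3K9me3 alone and 12.5% H3K27ac alone. Where each reached past the other, 66.9% kept both, 17.4% had H3K9me3 alone, 9.08% H3K27ac alone and 6.62% neither. After doxorubicin both marks were looked up only within the acetylated interval, and the part of this in the shares by shape was not tested. By position, both marks were listed at 64.3% of gene-end regions, 66.7% elsewhere in genes and 66.7% outside genes, with overlapping intervals. H3K27ac alone was listed at 11.2% of gene-end regions (interval 8.59 to 14.4%), 7.57% elsewhere in genes and 6.58% outside genes (5.80 to 7.47%). By the distance between the summits, both marks were listed at 66.1% of regions with summits within 150 bp and 67.7% of those with summits over 1000 bp apart. H3K27ac alone was listed at 6.04% of the close (5.14 to 7.10%) and 9.68% of the distant summits (8.12 to 11.5%), and neither mark at 5.12% (4.29 to 6.11%) and 1.44% (0.903 to 2.30%).

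Read from the other side, the same rule gave 7923 dual regions in the doxorubicin lists, 7.06% of the doxorubicin H3K27ac regions. Of these, 52.2% were listed with both marks in vehicle, 18.8% with H3K27ac alone, 17.7% with H3K9me3 alone and 11.3% with neither. The doxorubicin lists are longer, and the part of list length in these shares was not tested.

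At genes, 679 of 45069 (1.51%) had a dual region within 1000 bp of an end, among them 287 of 21896 protein-coding genes (1.31%). With the summit itself within 1000 bp there were 180 protein-coding genes. By strength, the first 4 were Wls, which carries Wnt proteins to the cell surface, Zfp991, Gm13212 and Lars2, the mitochondrial leucyl-tRNA synthetase, and all 4 regions were in both control lists. At Wls (chr3:159939399-159939693) the pileups were 1411 fragments of H3K27ac and 5404 of H3K9me3 after doxorubicin, against 2094 and 5124 in vehicle. At Lars2 they were 102 and 211 after doxorubicin, against 110 and 187 in vehicle. Septin1, Zfp553 and Zfp988, also among the first 12, lay in the untagged list.

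The first gene outside the control lists was Xrn2, a nuclear exoribonuclease that acts in transcription termination. Its H3K27ac region (chr2:147009855-147013976) covers the gene end at 147012755 and shares 629 bp with an H3K9me3 region of 11910 bp that lies outside the gene. The H3K27ac pileup was 57 fragments after doxorubicin, against 94 in vehicle. The H3K9me3 pileup was 9 fragments in the doxorubicin region that meets the acetylated one, against 56 in the longer vehicle region. Rrn3, an initiation factor of RNA polymerase I, had a like layout, with an H3K9me3 region of 3229 bp outside the gene and pileups of 41 and 27 after doxorubicin, against 78 and 38 in vehicle. Bnip5 shared 46 bp at its end, with 64 and 46 fragments after doxorubicin, against 123 and 42 in vehicle.

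At a few genes the H3K9me3 region covered most of the gene. Haus4, a subunit of the augmin complex of the spindle, had 90.7% of its length under an H3K9me3 region of 12895 bp, which shared 258 bp with the H3K27ac region near a gene end. The pileups there were 34 fragments of H3K27ac and 66 of H3K9me3 after doxorubicin, against 60 and 65 in vehicle. Psmg4, a chaperone of proteasome assembly, had 95.1% of its length under H3K9me3 and shared 8 bp with the H3K27ac region (chr13:34162329-34163720). Its pileups were 30 and 70 after doxorubicin, against 51 and 48 in vehicle. Actg1, which encodes gamma-actin, had 78.3% of its length under H3K9me3 and 73.2% under H3K27ac, with 46 and 33 fragments after doxorubicin, against 33 and 37 in vehicle. In all, 11 of the 180 genes (6.11%) had 50% or more of their length under the H3K9me3 region and 64 had none, a measure chosen after these values were seen.

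The other genes that lead the regions outside the control lists are Trmt10c, a mitochondrial tRNA methyltransferase, Prr14, which tethers heterochromatin to the nuclear lamina, Nynrin, Zfp420, Ifitm7 and Ube2l6, the conjugating enzyme of ISG15. All of them kept both marks in the lists. At Prr14 the pileups were 39 and 22 after doxorubicin, against 44 and 34 in vehicle, and 35.2% of the gene lay under H3K9me3. At Trmt10c they were 24 and 46 after doxorubicin, against 43 and 38 in vehicle.

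Of the 180 protein-coding genes with a dual summit near an end, the strongest region kept both marks at 121, was left with H3K27ac alone at 25 and with H3K9me3 alone at 27, and had neither at 7. Those left with H3K27ac alone were led by Hjurp, the chaperone of the centromeric histone CENP-A. Its region had 63 fragments of H3K27ac and no listed H3K9me3 after doxorubicin, against 108 and 24 in vehicle, and was in the untagged list. The region with its summit at the end of Zcchc3, close to 6820408C15Rik, had 17 fragments of H3K27ac and no listed H3K9me3 after doxorubicin, against 20 and 31 in vehicle, and the marks shared 48 bp. The vehicle H3K9me3 regions at Hjurp and Zcchc3 were 2889 and 1476 bp long, and at Hjurp the marks shared 133 bp. After doxorubicin H3K9me3 was looked up only within the acetylated intervals, so it may remain listed beside them. Gm6337 and Zfp980, also among the 5 strongest of this class, were in both control lists.

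The 5 strongest of the 27 genes left with H3K9me3 alone were Zfp984, Gm37116, Hrc, a calcium-binding protein of the sarcoplasmic reticulum, Ppfia3, a liprin, and Gm10323. Hrc and Ppfia3 share 1 region of 1405 bp, with no listed H3K27ac and 20 fragments of H3K9me3 after doxorubicin, against 17 of each in vehicle. At Zfp984 H3K27ac was not listed and H3K9me3 had 12 fragments after doxorubicin, against 26 and 50 in vehicle. The 5 strongest genes with neither mark listed after doxorubicin were Smyd1, a methyltransferase of muscle, Chfr, a ubiquitin ligase of the mitotic checkpoint, Mnt, a partner of MAX, Zfp2 and 4930467E23Rik. At Chfr the vehicle pileups were 13 fragments of H3K27ac and 51 of H3K9me3, and at Smyd1 15 and 19. The H3K9me3 regions, of 3823 and 2206 bp, shared 169 and 236 bp with the acetylated intervals. After doxorubicin H3K9me3 was looked up only within those intervals, so it may remain listed beside them. The last of these genes, 4930467E23Rik, was in both control lists.

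Gene groups known for H3K9me3 or for the pluripotent state were counted by a dual region within 1000 bp of a gene end, where 1.51% of all genes had one. At an end of all genes vehicle H3K27ac was met by 36.8%, vehicle H3K9me3 by 8.08% and both in any arrangement by 3.08%. The Zfp genes, which encode zinc finger proteins and include many KRAB repressors, had 24 of 416 (5.77%), of which 12 were outside the control lists. Both marks were listed after doxorubicin at 14 of the 24, H3K9me3 alone at 5, H3K27ac alone at 4 and neither at 1. Their median balance in vehicle was 0.41. Vehicle H3K27ac met 317 of the 416 genes and vehicle H3K9me3 met 80, and 69 had both marks at an end in any arrangement. Zfp414 shared 129 bp, with pileups of 46 and 24 after doxorubicin, against 69 and 22 in vehicle. Zfp882 shared 273 bp, with 38 and 21 after doxorubicin, against 84 and 19 in vehicle.

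Of 33 genes of the H3K9 silencing machinery 2 had a dual region, Atf7ip and Resf1, a retroelement silencing factor. At the Atf7ip start (chr6:136518602-136519432), which holds the Gm44140 window printed above, the pileups were 35 and 10 after doxorubicin, against 45 and 14 in vehicle. The Resf1 region began 108 bp past the gene end at 149335663 and had 12 and 14 fragments after doxorubicin, against 21 and 13 in vehicle. Of 48 imprinted genes none had a dual region by this rule, and with 1.51% of all genes having one, a list this short would often have none. At an end 32 had vehicle H3K27ac and 3 vehicle H3K9me3, and 2 had both marks there.

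Of 40 pluripotency genes 4 had one, Mybl2, Rex2, Dppa3 and Jarid2, the last 2 named after their values were seen. Mybl2, a cell cycle transcription factor, had an H3K9me3 region of 13904 bp over 45.8% of the gene, and pileups of 58 and 44 after doxorubicin, against 40 and 26 in vehicle. Dppa3, which encodes the oocyte and germ cell factor Stella, had no listed H3K27ac and 27 fragments of H3K9me3 after doxorubicin, against 11 and 37 in vehicle. Jarid2, a subunit of Polycomb repressive complex 2, had 23 and 31 after doxorubicin, against 11 and 47 in vehicle, at the end of the gene. The Rex2 region, with 86 and 11 after doxorubicin against 172 and 19 in vehicle, was in both control lists.

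Of 49 germ line genes 2 had a dual region. Brdt, a bromodomain protein of the testis, had no listed H3K27ac and 10 fragments of H3K9me3 after doxorubicin, against 13 and 11 in vehicle. Dpep3, a testis dipeptidase, had 9 and 21 after doxorubicin, against 11 and 17 in vehicle. The ribosomal protein genes had 1 of 85, Rpl39l, with 23 fragments of H3K27ac and no listed H3K9me3 after doxorubicin, against 13 and 10 in vehicle. There the marks shared 23 bp, and H3K9me3 was looked up only within the acetylated interval. Olfactory receptor genes had 3 of 1427, Olfr1388, Olfr1267-ps1 and Olfr212, and vomeronasal receptor genes 3 of 359, Vmn2r85, Vmn2r29 and Vmn2r82. No dual region was found at 35 genes of the 2-cell state, 40 lineage regulators, 20 fibroblast genes, 70 histone genes, 58 protocadherin genes, 43 Hox genes, 46 proteasome genes or 32 genes of the Zkscan and Zscan families. With 1.51% of all genes having one, lists this short would often have none. Of the 2-cell genes 8 had vehicle H3K9me3 and 1 vehicle H3K27ac.

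Away from gene ends, the strongest dual region of all (chr2:98666224-98667344) had 49307 fragments of H3K27ac and 96206 of H3K9me3 after doxorubicin, against 57747 and 98402 in vehicle, and lay in both control lists. The strongest outside the control lists (chr13:120321388-120321655) had no listed H3K27ac and 2904 fragments of H3K9me3 after doxorubicin, against 1098 and 2641 in vehicle. Its length of 268 bp and balance of -1.63 were near those of the Wls region, 295 bp and -1.66, which was in both control lists. Whether it shares that background was not tested. A region of 5721 bp within Trak1 (chr9:121312844-121318564) had 72 and 65 after doxorubicin, against 144 and 72 in vehicle. Among the 100 strongest dual regions 94 were listed with both marks after doxorubicin, but 79 of the 100 were in at least 1 control list.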

How the data were processed

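The study's 14 ChIP-seq libraries form 7 groups of 2, and each group has 1 peak list from its pooled libraries. Per the submitters' processing notes, alignment used Bowtie2 2.2.6 and mm10, and the file headers name the added contig tig00005009. The authors called narrow peaks with MACS2 2.2.5 in paired-end mode at a q cutoff of 0.05, with 1 fragment kept per position and, for the histone and input lists, no control, per the file headers. Of the deposited columns, the signal is the fragment pileup at a summit. The deposited q-value is given as −log10, and the deposited fold enrichment is the ratio of pileup to background. These are the authors' values for each peak and only describe or rank regions within a list.

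Summits of 1 interval were joined and the highest kept. Overlap was at least 1 bp. Genes (45069) and promoters came from RefSeq tables of GRCm38.p6. Python 3.11.15, numpy 2.4.6, pandas 2.3.3, scipy 1.17.1 and matplotlib 3.10.9 were used, and overlap counts on 80640 simulated regions were the same as those of bedtools 2.31.1. The members, gene lists and rules were chosen with earlier results of these data known. Named genes were the 12 protein-coding genes of greatest strength with a summit within 1000 bp of an end, the 5 strongest of each outcome other than both marks, every imprinted and silencing gene, and the 2 strongest of each other list. Leading genes outside the control lists were added after the data were seen. Alternatives were a −log10 q of at least 5, a pileup of at least 1 per 1000000 fragments, 50% coverage, merging within 1000 bp, no input regions, p53 regions kept, chromosomes 1 to 19 and X, equal list lengths and gene windows of 500 and 5000 bp.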

Additional observations from a re-analysis of the deposited data

How the results depend on the processing

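No paired analysis was possible because the 2 libraries of a group were pooled before peak calling, and for the same reason no library was left out. Of 90 shares, differences of shares and medians under alternatives, 40 stayed within the interval of the reported value, 42 left it with the same sign and 8 changed sign. The sign changes were 5 of the 8 median balances and 3 of the 9 H3K9me3 differences at like pileup. The number of dual regions ran from 1731 to 7351 and was within 1.5 times the reported number under 6 of 8 alternatives. The cause was not tested except where a setting itself shortens a list. The order of the 4 outcomes, with both marks first, H3K9me3 alone second, then H3K27ac alone and neither last, was kept under each alternative.

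At a −log10 q of at least 5 there were 3228 dual regions, with H3K27ac listed after doxorubicin at 72.2%, both marks at 64.3%, H3K9me3 alone at 23.8%, a median balance of 0.071 and an H3K9me3 difference at like pileup of -0.431 points. At 1 fragment per 1000000 there were 1731 regions, H3K27ac at 76.1%, H3K27ac alone at 9.07%, H3K9me3 alone at 20.7%, neither at 3.23%, a balance of 0.23, 8.09% at gene ends and differences of -3.77 points for H3K27ac and -1.63 for H3K9me3. With 50% of the region covered, H3K27ac was at 62.8%, both at 56.5%, H3K27ac alone at 6.28%, H3K9me3 alone at 31.3%, neither at 5.93%, the balance -0.37 and the differences -3.53 and 2.33 points. After merging, H3K27ac was at 78.7%, H3K9me3 at 89.7%, both at 71.6%, H3K9me3 alone at 18.1%, neither at 3.14% and the balance 0.072. Without input regions the balance was 0.046, the gene-end share 6.23% and the H3K9me3 difference 2.51 points. Without input or untagged regions, a setting added after the data were seen, they were 0.067, 5.97% and 2.61 points, and the H3K27ac difference was -5.91 points. With p53 regions kept, H3K27ac was at 77.7%, H3K9me3 at 89.6%, both at 71.0%, H3K9me3 alone at 18.6%, neither at 3.71% and the differences -1.30 and 2.32 points. With doxorubicin lists of equal length, H3K27ac was at 68.0%, H3K9me3 at 80.5%, both at 56.2%, H3K27ac alone at 11.8%, H3K9me3 alone at 24.3%, neither at 7.73% and the H3K9me3 difference -0.155 points. Gene windows of 500 and 5000 bp gave 4.58% and 25.5%.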
